A study of Mus musculus with 12 samples.

Results

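The genes described here are 10 components of the Notch signalling pathway: the receptors Notch1, Notch2, Notch3 and Notch4, the ligands Dll1, Dll4 and Jag1, and the target genes Hes1, Hey1 and Hey2. They were chosen by gene symbol in the annotation of the array platform, and were 10 of the 18193 genes with a probe set of their own. All 10 were among the 13067 genes that passed the filter on low signal and were tested. The 10 genes had 18 of the 45101 probe sets, and each gene was represented by the probe set with the highest mean over the 12 arrays.

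RNA abundance was measured with 12 Affymetrix arrays in D3, a line of mouse embryonic stem (ES) cells. The 4 groups of 3 arrays were NP day8, BPA day8, control day8 and control day0, and the agent of both control groups was labelled as none. All samples carry the same growth note, which gives culture on MMC-treated mouse embryonic fibroblasts and differentiation through embryoid bodies, the aggregates in which ES cells form several cell types at once. It does not say how the day 0 and day 8 cells differed in culture, nor whether feeder cells were removed. The agents appear in the labels only as NP and BPA, without doses. Whether the 3 arrays of a group came from separate cultures is not stated there, and every p-value below therefore reflects array-to-array spread alone, which may be technical.

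Notch receptors are cut after they bind a Delta-like (Dll) or Jagged (Jag) ligand on a neighbouring cell. The released intracellular fragment enters the nucleus, joins the DNA-binding protein RBPJ and a Mastermind protein, and turns on target genes such as those of the Hes and Hey families, which encode transcriptional repressors. In the embryo the pathway is known for its part in the formation of blood vessels, heart, somites and nervous system.

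Values are log2 signals, on which a difference of 1 is a doubling of the array's signal. A signal was taken as above background where it exceeded the highest of the 36 values of the bacterial TrpnX control probe sets, a log2 signal of 3.41. By this measure 58.2% to 62.2% of probe sets were above background on an array. The summed signal of 7 markers of pluripotent cells was 7736 to 11607 on NP day8 arrays, 9397 to 10277 on BPA day8 arrays, 1710 to 2686 on control day8 arrays and 15548 to 16919 on control day0 arrays, and none of the 7 was below background on all arrays of a group. With 3 arrays a group, precision is limited by their number.

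The promoters of Hey2 and Jag1 are shown because these genes had the largest changes among the 10 with the agents. The sequences are from RefSeq, assembly GRCm38.p6, and run 5′ to 3′ on the gene's strand, with 250 bases before the annotated start of the gene and 50 after it. Hey2 lies on the minus strand at chr10:30842734-30843033, and Jag1 on the minus strand at chr2:137116471-137116770. Capitals mark matches to TGGGAA, the core of the sequence that RBPJ is known to bind, on either strand.
Hey2: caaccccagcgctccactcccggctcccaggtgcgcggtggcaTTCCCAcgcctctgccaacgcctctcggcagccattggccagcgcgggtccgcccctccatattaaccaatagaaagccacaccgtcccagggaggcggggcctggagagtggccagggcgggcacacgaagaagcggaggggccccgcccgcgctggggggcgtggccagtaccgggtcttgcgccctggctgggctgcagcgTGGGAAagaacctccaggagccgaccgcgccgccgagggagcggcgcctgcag
Jag1: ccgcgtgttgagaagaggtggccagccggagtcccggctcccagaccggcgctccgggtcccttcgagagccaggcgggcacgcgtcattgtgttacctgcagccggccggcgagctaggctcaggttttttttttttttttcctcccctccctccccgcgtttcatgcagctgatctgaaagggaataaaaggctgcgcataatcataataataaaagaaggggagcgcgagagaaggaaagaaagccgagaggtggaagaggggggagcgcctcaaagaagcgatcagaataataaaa
The Hey2 window held 2 matches, at positions -207 to -202 on the opposite strand and at positions -3 to 3 on the strand of the gene, counted from the start site with no position 0. Both also matched the longer form GTGGGAA, which contains TGGGAA. The Jag1 window held 0 matches. The promoter table held 8 of the 10 genes, all but Hes1 and Hey1, with 9 windows, and 1 of these 9 windows held TGGGAA. Among all 32851 promoter windows of the table, 25.6% held TGGGAA and 6.38% held GTGGGAA. These matches are a description of the letters in the window, and no binding was measured.

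Differentiation without an agent was addressed by control day8 against control day0. Here 5 of the 10 genes passed an adjusted p of 0.05 (limma with Benjamini-Hochberg adjustment over the 13067 genes), with Hey2, Notch2, Hey1 and Notch3 higher and Dll1 lower. Of all genes tested 48.7% passed, 28.3% as higher and 20.5% as lower, so that the share among the Notch genes was close to that of all genes. The median change of the 10 genes was 0.42 on the log2 scale, and that of all genes was 0.12. The control day8 and control day0 arrays did not overlap for 4 of the 10 genes, and for 56.8% of all genes.

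**Figure D1:**
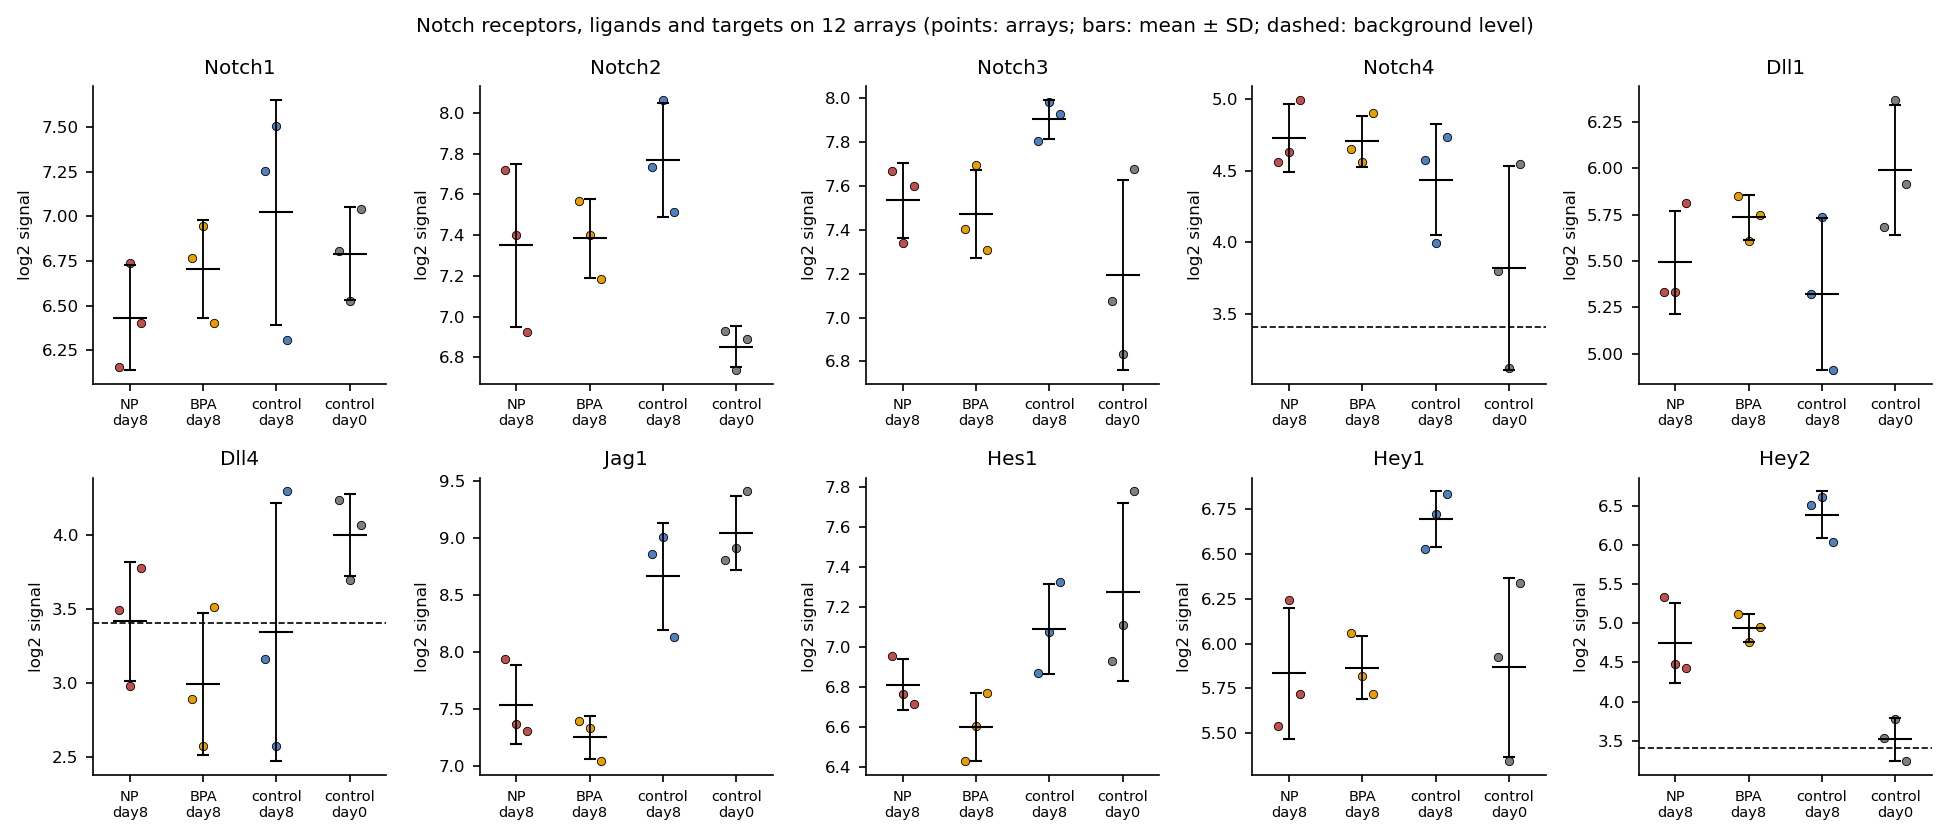
Log2 signal of the main probe set of each of the 10 Notch genes on every array (points), with the mean and SD of each group (bars, n = 3 arrays). Hey2 lay at 6.04 to 6.61 on control day8 arrays, above every array of the other 3 groups, and Jag1 lay below 8 on all NP day8 and BPA day8 arrays and above 8 on all control arrays.

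Among the receptors, Notch2 had the largest change over the 8 days. Notch2, which is expressed in many tissues of the embryo, had log2 signals of 7.73, 8.07 and 7.51 on control day8 arrays, against 6.93, 6.74 and 6.89 on control day0 arrays. Every control day8 array was above every control day0 array. The means were 7.77 ± 0.28 and 6.85 ± 0.10 (SD, n = 3 each), and Notch2 rose by 0.92 ± 0.21 on the log2 scale (SE), or 1.89-fold (limma, adjusted p = 0.00547). Its second probe set, above background on 2 of the 12 arrays, had the opposite sign, at -1.21 (SE 1.28).

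Notch3, a receptor best known from vascular smooth muscle, had log2 signals of 7.81, 7.98 and 7.93 on control day8 arrays, against 7.07, 6.83 and 7.68 on control day0 arrays. The groups did not overlap, although 1 control day0 array lay close to the control day8 arrays. Notch3 rose by 0.71 ± 0.20 on the log2 scale, or 1.64-fold (limma, adjusted p = 0.0165). Its second probe set changed by 0.87 ± 0.27, with an adjusted p of 0.0551 by limma over all probe sets, of which 17.7% were called. The call was lost without control day0 replicate 1 (limma, adjusted p = 0.0546), control day0 replicate 2 (0.0596) or control day8 replicate 2 (0.0503), with arrays centred on their median (0.0532) and in a fit of these 2 groups only (0.0592).

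Notch1 and Notch4 did not pass. Notch1, the receptor with the broadest known roles, averaged 7.02 ± 0.63 on control day8 arrays and 6.79 ± 0.26 on control day0 arrays, a log2 change of 0.23 ± 0.30 (limma, adjusted p = 0.57). Notch4, known mainly from endothelium, averaged 4.44 ± 0.39 on control day8 arrays and 3.82 ± 0.71 on control day0 arrays. Its log2 change was 0.61 ± 0.33 (limma, adjusted p = 0.154), and 1 of its 3 control day0 arrays was below background. Notch4 passed as higher without control day0 replicate 3 (limma, adjusted p = 0.0181) and with the replicate number as a block (0.047). The arrays of these groups overlapped for both genes.

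Of the ligands, Dll1 alone passed in this comparison. Dll1, a ligand needed for somite formation and for the timing of neuronal differentiation, had log2 signals of 5.32, 5.74 and 4.91 on control day8 arrays, against 5.68, 6.37 and 5.91 on control day0 arrays. The 2 groups overlapped, with control day8 replicate 2 above control day0 replicate 1. Dll1 fell by 0.67 on the log2 scale, with an SE of 0.24 (limma, adjusted p = 0.0437). That call was lost on leaving out any 1 of 9 of the 12 arrays, with adjusted p between 0.0546 and 0.152, and remained without control day0 replicate 1, control day8 replicate 2 or NP day8 replicate 3. It was also lost without the low-signal filter (limma, adjusted p = 0.0718), with the mean of probe sets (0.051), in a fit of these 2 groups only (0.11) and with the replicate number as a block (0.0637).

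Jag1, a ligand known from heart, vessel and bile duct development, averaged 8.67 ± 0.47 on control day8 arrays and 9.05 ± 0.32 on control day0 arrays (limma, adjusted p = 0.279). Dll4, the ligand of arterial endothelium, had log2 signals of 3.16, 2.58 and 4.30 on control day8 arrays, against 4.24, 3.69 and 4.07 on control day0 arrays (limma, adjusted p = 0.232). Without control day8 replicate 3 it passed as lower (limma, adjusted p = 0.0243). Dll4 was above background on 1 of 3 control day8 arrays, on all 3 control day0 arrays and on 7 of the 12 arrays in all, so that its changes rest on signals near background.

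The target gene Hey2 had the largest change of the 10. Hey2, a repressor known from the ventricular heart muscle and from arteries, had log2 signals of 6.51, 6.61 and 6.04 on control day8 arrays, against 3.54, 3.78 and 3.23 on control day0 arrays. Every control day8 array was more than 2 log2 units above every control day0 array, and 1 of the control day0 arrays was below background. Hey2 rose by 2.87 ± 0.26 on the log2 scale, or 7.31-fold (limma, adjusted p = 2.95e-05, 95% interval 2.28 to 3.46). Since control day0 lay at background, the size depends on how low signals are treated: with a pseudocount of 16 the change was 1.86 (limma, adjusted p = 4.39e-06).

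Hey1, a related repressor of heart and vessel development, had log2 signals of 6.53, 6.72 and 6.83 on control day8 arrays, against 5.93, 5.34 and 6.33 on control day0 arrays. The groups did not overlap, and Hey1 rose by 0.83 ± 0.26 on the log2 scale, or 1.77-fold (limma, adjusted p = 0.0231). The call was lost without control day0 replicate 2 (limma, adjusted p = 0.0749), control day8 replicate 2 (0.0582) or control day8 replicate 3 (0.067), with quantile normalization (0.0916), with arrays centred on their median (0.0704) and in a fit of these 2 groups only (0.0576). Hes1, a target gene and repressor that is also active in progenitor cells, averaged 7.09 ± 0.23 on control day8 arrays and 7.28 ± 0.45 on control day0 arrays, with overlapping arrays (limma, adjusted p = 0.516).

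Markers of some other cell types moved with these genes. The summed signal of 8 cardiac muscle markers was 1974 to 3054 on control day8 arrays and 99.5 to 127 on control day0 arrays, where Tnnt2 and Myh7, defining markers of heart muscle, were below background on all arrays. For 10 endothelial markers the sum was 832 to 948 on control day8 arrays and 161 to 212 on control day0 arrays, with Cdh5, Tie1 and Emcn below background on all control day0 arrays. For 8 markers of visceral endoderm it was 7025 to 13603 on control day8 arrays and 114 to 139 on control day0 arrays. In these bulk samples, fewer cells of a type and less RNA per cell cannot be told apart, and the part of these cell types in the Notch gene changes was not tested.

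The agent BPA was addressed by BPA day8 against control day8, in which Hey2, Jag1 and Hey1 fell. These were 3 of the 10 genes, against 22.2% of all genes called and 10.2% called lower, and 0 of the 10 rose, against 12% of all genes called higher. At an unadjusted p under 0.05 by limma 4 of the 10 genes passed, against 4651 of the 13067 genes tested. The BPA day8 and control day8 arrays did not overlap for 5 of the 10, against 41.6% of all genes. The median change of the 10 genes was -0.41, and that of all genes 0.04.

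The agent NP was addressed by NP day8 against control day8, in which Hey2 and Jag1 fell. These were 2 of the 10 genes, against 14.2% of all genes called and 6.28% called lower, and 0 of the 10 rose, against 7.9% called higher. At an unadjusted p under 0.05 by limma 3 of the 10 passed, against 3741 of the 13067 genes tested. The NP day8 and control day8 arrays did not overlap for 4 of the 10, against 34.8% of all genes. The median change of the 10 genes was -0.40, and that of all genes 0.01. Both comparisons use the same 3 control day8 arrays, so that they are not independent of each other.

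**Figure D2:**
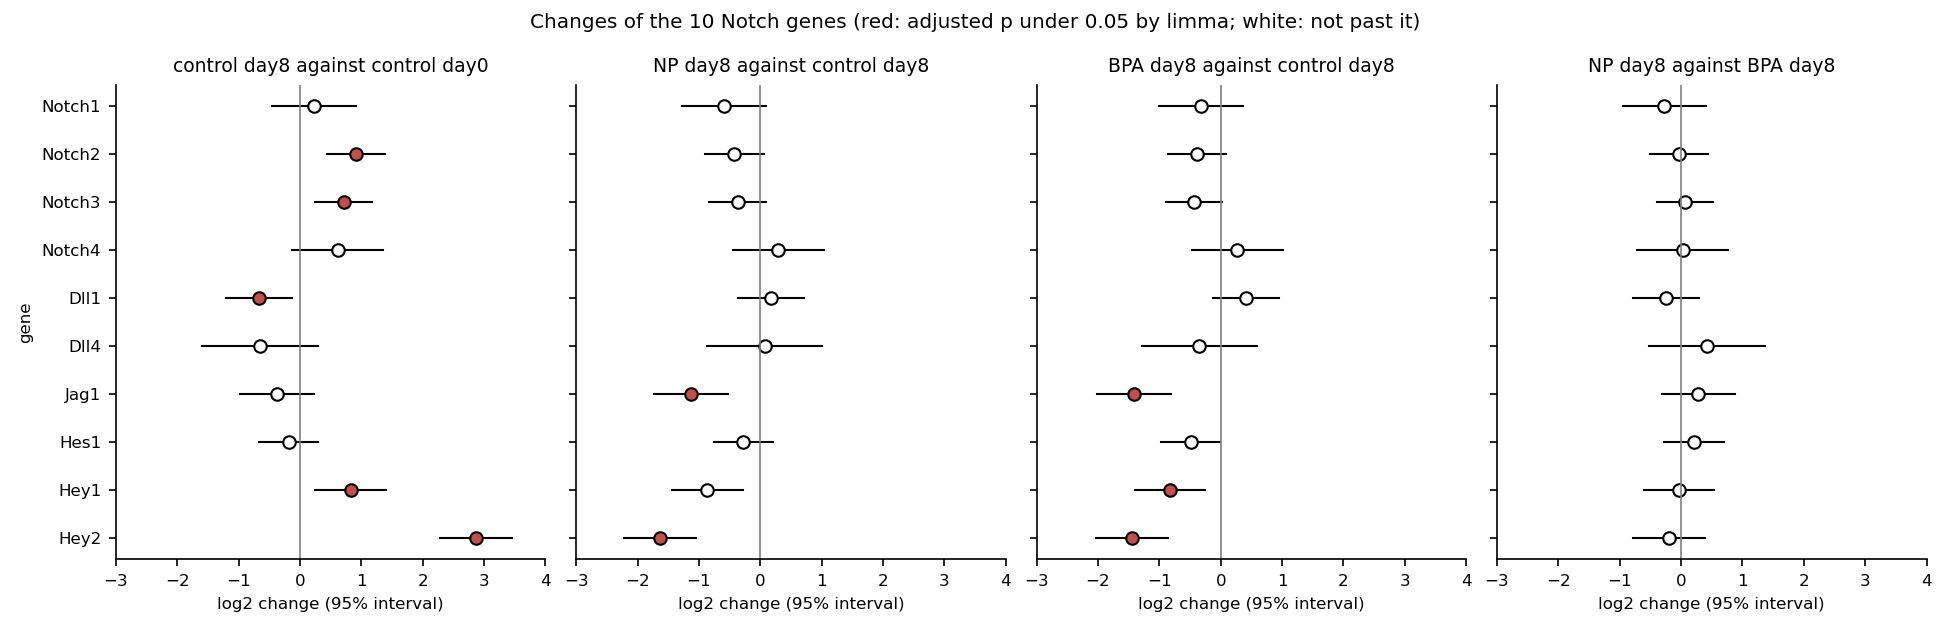
Log2 change of each of the 10 Notch genes with its 95% interval, for NP day8 and BPA day8 against control day8 and for control day8 against control day0. Hey2 is highest in control day8 against control day0, at 2.87, and lowest with both agents, at -1.64 with NP and -1.44 with BPA.

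Hey2 had the largest fall with either agent. Its log2 signals were 5.33, 4.48 and 4.43 on NP day8 arrays and 5.12, 4.76 and 4.95 on BPA day8 arrays, against 6.51, 6.61 and 6.04 on control day8 arrays. All 6 arrays of cells with an agent were below all 3 control day8 arrays, and above all 3 control day0 arrays. Hey2 fell by 1.64 on the log2 scale with NP, or 3.12-fold (SE 0.26, limma, adjusted p = 0.00456), and by 1.44 with BPA, or 2.72-fold (SE 0.26, limma, adjusted p = 0.00472). It passed under each of the 22 alternative settings in both comparisons.

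Jag1, whose signals on control day8 and control day0 arrays overlapped, was lower with both agents. Its log2 signals were 7.94, 7.37 and 7.31 on NP day8 arrays and 7.40, 7.33 and 7.04 on BPA day8 arrays, against 8.86, 9.01 and 8.13 on control day8 arrays. No array of cells with an agent reached the lowest control day8 array. Jag1 fell by 1.13 on the log2 scale with NP, or 2.19-fold (SE 0.27, limma, adjusted p = 0.0236), and by 1.41 with BPA, or 2.66-fold (SE 0.27, limma, adjusted p = 0.00578).

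The second probe set of Jag1 also averaged less with the agents, at 5.46 ± 0.19 on NP day8 arrays and 5.05 ± 0.93 on BPA day8 arrays, against 6.36 ± 0.76 on control day8 arrays, but its changes of -0.90 with NP and -1.32 with BPA did not pass by limma over all probe sets, of which 1.7% were called with NP and 4.32% with BPA. The third was above background on 5 of 12 arrays. With the mean of the probe sets in place of the main one, Jag1 did not pass with NP (limma, adjusted p = 0.182) or with BPA (0.0975). The call with NP was also lost in a fit of these 2 groups only (0.0869) and without NP day8 replicate 2 (0.0846), NP day8 replicate 3 (0.0838), control day8 replicate 1 (0.0856) or control day8 replicate 2 (0.0791).

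**Figure D3:**
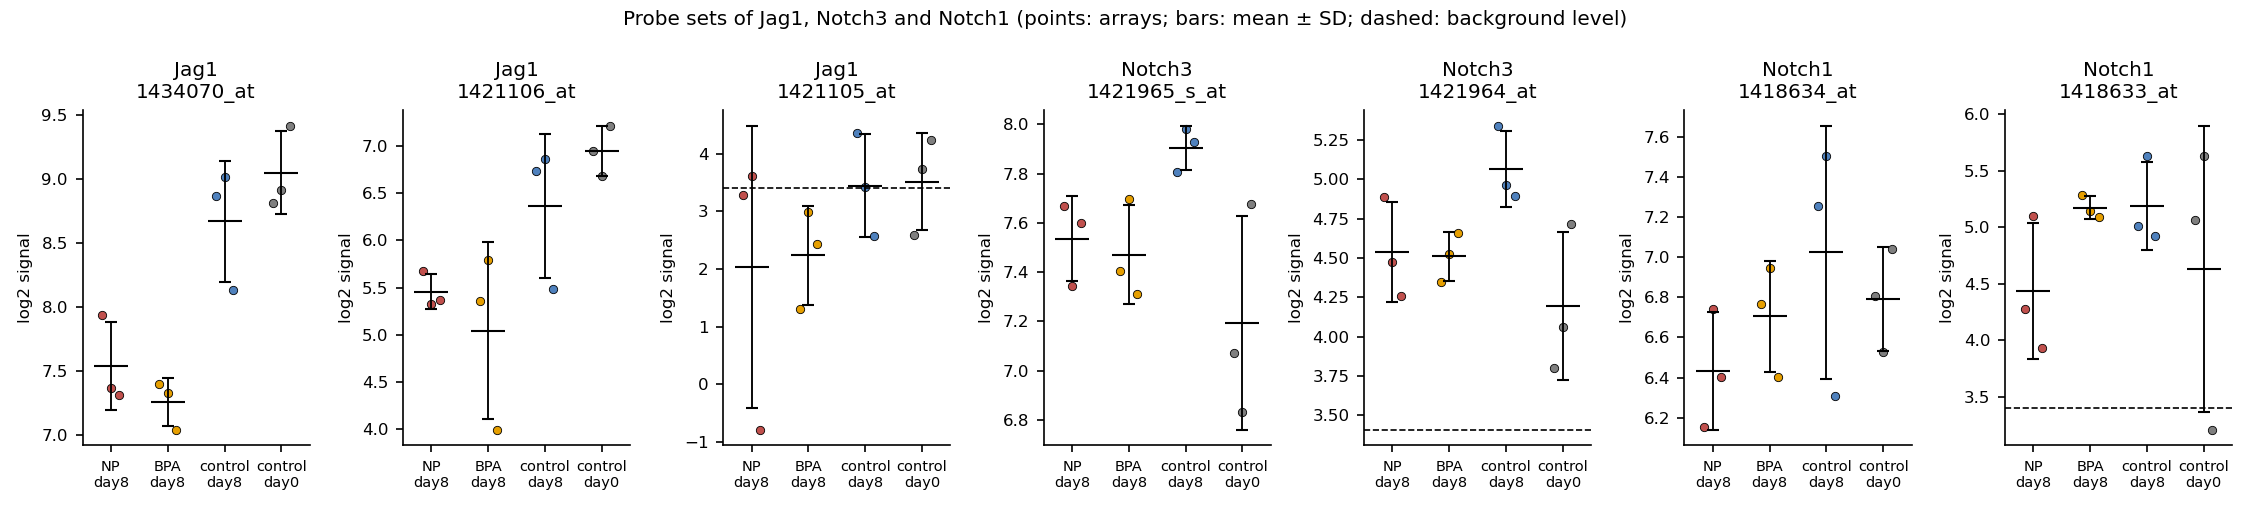
Log2 signal on every array for the probe sets of Jag1, Notch3 and Notch1 that passed the filter, with group means and SD (n = 3 arrays) and, where in range, the background level of 3.41 as a dashed line. The probe sets of Jag1 with means of 8.13 and 5.95 over the 12 arrays were both lower on average in NP day8 and BPA day8 than in control day8, while the third lay near background.

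Hey1 was lower with either agent by nearly the same amount, on opposite sides of the threshold. Its log2 signals were 5.54, 6.24 and 5.72 on NP day8 arrays and 6.06, 5.82 and 5.72 on BPA day8 arrays, against 6.53, 6.72 and 6.83 on control day8 arrays. Neither set of arrays overlapped control day8. The log2 change was -0.86 ± 0.26 with NP (limma, adjusted p = 0.0527) and -0.83 ± 0.26 with BPA (limma, adjusted p = 0.0445). Under the 22 alternatives the call with BPA was lost in 13, and of the 12 fits that left out an array only those without control day0 replicate 2 or 3 or NP day8 replicate 1 or 2 kept it, with adjusted p up to 0.124 in the others. With NP a call was gained in 7 of the 22, and adjusted p ranged between 0.0301 and 0.148 on leaving out 1 array, with calls without control day0 replicate 2 or 3 or NP day8 replicate 2.

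In the fit of all 12 arrays the receptors and Hes1 did not pass with either agent. Notch3 had log2 signals of 7.67, 7.34 and 7.60 on NP day8 arrays and 7.41, 7.70 and 7.31 on BPA day8 arrays, all below the 7.81, 7.98 and 7.93 of control day8. Its log2 changes were -0.37 ± 0.20 with NP (limma, adjusted p = 0.271) and -0.44 ± 0.20 with BPA (0.161). Hes1 had log2 signals of 6.96, 6.76 and 6.72 on NP day8 arrays and 6.43, 6.61 and 6.77 on BPA day8 arrays, against 6.87, 7.08 and 7.32 on control day8 arrays. For Hes1 only the BPA day8 arrays stayed below all control day8 arrays, and the changes were -0.28 with NP (limma, adjusted p = 0.439) and -0.49 with BPA (0.135). The change of Hes1 with BPA passed without control day0 replicate 3 (limma, adjusted p = 0.0439).

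Notch2 averaged 7.35 ± 0.40 on NP day8 arrays and 7.38 ± 0.19 on BPA day8 arrays, against 7.77 ± 0.28 on control day8 arrays (limma, adjusted p = 0.225 with NP and 0.228 with BPA). Notch1 averaged 6.43 ± 0.29 on NP day8 arrays and 6.70 ± 0.28 on BPA day8 arrays (limma, adjusted p = 0.237 and 0.501). Control day8 arrays averaged 7.02 ± 0.63, and 1 of them, replicate 3 at 6.31, lay well below the others. Without that array Notch1 passed as lower with NP, at a log2 change of -0.95 (limma, adjusted p = 0.0297). Notch4 averaged 4.73 ± 0.23 on NP day8 arrays and 4.70 ± 0.18 on BPA day8 arrays, against 4.44 ± 0.39 on control day8 arrays. For the main probe sets of these 3 receptors the groups overlapped in both comparisons. The other probe sets of Notch4 were above background on 4 and 3 of the 12 arrays and had the opposite sign. Their log2 changes were -2.22 and -1.25 with NP and -0.54 and -1.77 with BPA (SE 1.07 and 1.32).

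The Delta-like ligands did not pass with either agent. Dll1 averaged 5.49 ± 0.28 on NP day8 arrays and 5.73 ± 0.12 on BPA day8 arrays, against 5.32 ± 0.41 on control day8 arrays. Dll4 had log2 signals of 3.49, 2.98 and 3.78 on NP day8 arrays and 2.89, 2.58 and 3.52 on BPA day8 arrays, against 3.16, 2.58 and 4.30 on control day8 arrays. These overlapped and lay near background.

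The agents were set against each other in NP day8 against BPA day8, in which 0 of the 10 Notch genes passed by limma, with 0 at an unadjusted p under 0.05. Over all genes 0.00765% passed, which was 1 gene, and 1095 genes had an unadjusted p under 0.05. The arrays overlapped for all 10 Notch genes, against 17% of all genes that did not overlap. The differences, NP minus BPA, ran between -0.27 for Notch1 and 0.42 for Dll4, with the lowest adjusted p at 0.83. For Hey2 the difference was -0.20 with a 95% interval of -0.78 to 0.39, for Jag1 0.28 with an interval of -0.32 to 0.88 and for Hey1 -0.03 with an interval of -0.60 to 0.54. These intervals do not show that the agents acted alike, since a difference of 0.88 on the log2 scale for Jag1 lies within them. The 1 gene that passed was Tgfb3 (limma, adjusted p = 0.0425). This growth factor gene lies outside the Notch list and was named after its values were seen. It averaged 3.70 on NP day8 arrays and 0.56 on BPA day8 arrays, where it was not above background. With the BPA day8 values raised to the background level, the means of the normalized log2 values differed 1.23-fold, higher with NP. That fold has no estimate of its spread.

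Set against control day0, the day 8 arrays with an agent showed where each Notch gene stood relative to day 0. With BPA 3 of the 10 passed, against 33.6% of all genes, and with NP 2 of the 10, against 32.1%. The BPA day8 and control day0 arrays did not overlap for 6 of the 10, against 49.4% of all genes, and the NP day8 and control day0 arrays for 3 of the 10, against 47.6%. Both comparisons share the control day0 arrays with the comparison of the controls. The median changes of the 10 genes were -0.20 with NP and -0.04 with BPA, and those of all genes 0.10 and 0.14.

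Hey2 was above control day0 in cells with either agent, and was the 1 Notch gene called higher there, against 20.2% of all genes with NP and 21.7% with BPA. It rose by 1.23 ± 0.26 with NP (limma, adjusted p = 0.00639) and by 1.43 ± 0.26 with BPA (0.00281). With a pseudocount of 16 these changes were 0.65 with NP (limma, adjusted p = 0.0118) and 0.77 with BPA (0.00457). Jag1 was below control day0, where it had 8.81, 8.91 and 9.42, and fell by 1.51 with NP (SE 0.27, with 11.9% of all genes called lower in either comparison, limma, adjusted p = 0.00266) and by 1.79 with BPA, or 3.45-fold (SE 0.27, limma, adjusted p = 0.00103). All 8 fibroblast markers also fell against control day0 with either agent, with median changes of -4.31 with NP and -4.22 with BPA, and their part in the Jag1 change was not tested. The second probe set of Jag1 fell by 1.90 with BPA (limma over all probe sets, adjusted p = 0.0446, against 8.6% of probe sets called), and changed by -1.49 with NP without passing (0.105, against 8.27% called). Hes1 had 6.43, 6.61 and 6.77 on BPA day8 arrays, against 6.93, 7.11 and 7.78 on control day0 arrays, with no overlap. It fell by 0.67 with BPA (SE 0.21, limma, adjusted p = 0.037), a call that was lost in 7 of the 12 fits that left out an array, with adjusted p up to 0.11, and remained without control day0 replicate 1, control day8 replicate 1 or 3 or NP day8 replicate 1 or 3. It was also lost without the low-signal filter (0.0643) and in a fit of these 2 groups only (0.101), and the change was -0.42 without control day0 replicate 3 (0.0827). Hey1 differed from control day0 by -0.03 with NP and -0.00 with BPA, with adjusted p of 0.936 and 0.994 by limma.

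The order of the group means differed between the genes. For Hey2 it ran, high to low, control day8, BPA day8, NP day8 and control day0, with NP day8 and BPA day8 not differing beyond their spread. For Jag1 it ran control day0, control day8, NP day8 and BPA day8, and neither neighbour within the control pair nor within the agent pair differed beyond its spread. For Hey1, control day8 stood highest, and the other 3 groups, at 5.83 ± 0.36, 5.87 ± 0.17 and 5.87 ± 0.50 for NP day8, BPA day8 and control day0, did not differ from each other beyond their spread. Hey2 followed control day8 in the same direction as Rflnb, Ackr3 and Rbm20, the 3 genes whose profile over the 12 arrays was most like it (Pearson r of 0.989, 0.983 and 0.980). For Jag1 these were Fn1, Cd44 and Cavin1 (0.968, 0.958 and 0.954), and for Dll4 they were Sumo3, Dnajb11 and Dguok (0.930, 0.895 and 0.893). The 12 points are arrays of the same 4 groups, so that these values mostly describe group differences, and they are given as a description.

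In the comparisons with the agents, some marker lists had several genes called lower, as Hey2 and Jag1 were, and others had few or none. The summed signal of the 8 cardiac muscle markers was 203 to 1157 on NP day8 arrays and 201 to 405 on BPA day8 arrays, against 1974 to 3054 on control day8 arrays, and 4 and 5 of the 8 genes fell. The 1157 was NP day8 replicate 1, with 203 and 246 on the other NP day8 arrays. Replicate 1 also had the highest Hey2 and Jag1 signals among the NP day8 arrays, at 5.33 and 7.94. For the endothelial markers the sum was 323 to 416 on NP day8 arrays and 343 to 411 on BPA day8 arrays, against 832 to 948 on control day8 arrays, with 4 of the 9 tested lower in each. For 9 markers of smooth muscle and pericytes it was 772 to 2020 on NP day8 arrays and 712 to 1424 on BPA day8 arrays. On control day8 arrays it was 4200 to 5587, and on control day0 arrays 3226 to 3905. Myh11 was below background on all control day8 arrays, and Acta2 was the brightest of these markers there, at 11.67 ± 0.18. For 8 fibroblast markers, which cover the feeder cells, the sum was 467 to 769 on NP day8 arrays and 554 to 710 on BPA day8 arrays, against 5313 to 8098 on control day8 arrays and 6303 to 8336 on control day0 arrays. On control day8 arrays the brightest of these markers were Col3a1, Postn and Col1a2, at means of 11.41, 11.08 and 10.67. On control day0 arrays they were Col1a2, Col3a1, S100a4 and Lox, at 11.41, 10.38, 10.21 and 9.92. Control day8 was not level with control day0 gene by gene, since 5 of the 8 fibroblast markers fell and 2 rose there, with a median change of -2.47. Thy1 averaged 2.97 ± 1.17 on control day8 arrays and 8.18 ± 0.29 on control day0 arrays, and Lox 5.72 ± 0.21 and 9.92 ± 0.32 (SD, n = 3 each). In the same order S100a4 averaged 3.09 ± 0.64 and 10.21 ± 0.37, and Mmp3 1.60 ± 1.99 and 7.09 ± 0.52. Whether the fibroblast marker signals at day 8 came from feeder cells was not tested. All 7 pluripotent cell markers rose with NP and with BPA. The sum of the 8 visceral endoderm markers was 11742 to 12959 on NP day8 arrays and 6997 to 10020 on BPA day8 arrays. On control day8 arrays that sum was 7025 to 13603, and 1 of the 8 fell with each agent. Of 6 neural progenitor markers tested, 0 fell with either agent and 1 rose with NP. Of 3 presomitic mesoderm markers tested, 0 passed with either agent, at median changes of 0.46 with NP and 1.11 with BPA. Of all genes 6.28% were called lower and 7.9% higher with NP, and 10.2% and 12% with BPA. At these shares, 0 or 1 call in so short a list does not show that its genes kept their level. The part of these cells in the Hey2 and Jag1 changes was not tested.

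**Figure D4:**
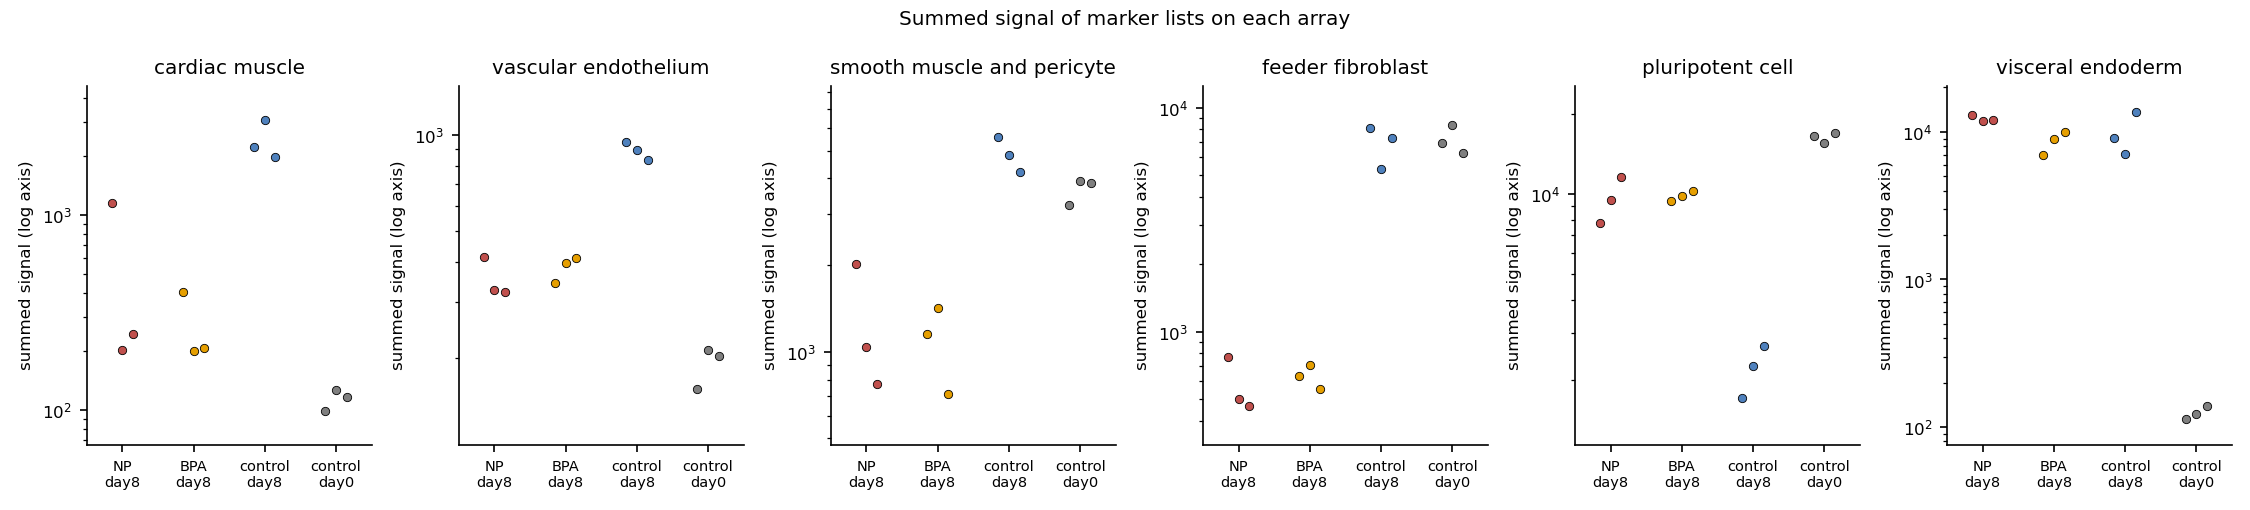
Summed linear signal of the cardiac muscle, endothelial, smooth muscle and pericyte, fibroblast, pluripotent cell and visceral endoderm markers on every array (points, log axis), by group. The cardiac, endothelial, smooth muscle and fibroblast sums of NP day8 and BPA day8 arrays all lay below those of control day8 arrays, and the pluripotent cell sums above them.

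The rest of the pathway was described from lists of its ligands, cleavage enzymes, glycosyltransferases, turnover factors, nuclear proteins and other targets, in all 52 genes of which 48 were on the array and 44 were tested. In control day8 against control day0 16 of the 44 were higher, against 28.3% of all genes, and 7 lower, against 20.5%, and their median change of 0.20 lay near the 0.12 of all genes. With BPA 5 were higher than in control day8, against 12% of all genes, and 6 lower, against 10.2%. With NP 5 were higher, against 7.9% of all genes, and 1 lower, against 6.28%. The total of 11 with BPA became 7 when control day8 replicate 2 or any 1 BPA day8 array was left out, 6 when control day8 replicate 1 was, and 6 or 7 in another 3 settings. The total of 6 with NP was 3 without control day8 replicate 1 or NP day8 replicate 3. In NP day8 against BPA day8 0 of the 44 passed by limma, with 3 at an unadjusted p under 0.05, against 1095 of the 13067 genes tested.

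Rbpj, which encodes the DNA-binding partner of all Notch receptors, was lower in control day8 than in each of the other 3 groups. It averaged 9.90 ± 0.10 on NP day8 arrays and 10.10 ± 0.09 on BPA day8 arrays, against 8.99 ± 0.12 on control day8 arrays and 9.98 ± 0.04 on control day0 arrays. No array of another group came within 0.5 of the highest control day8 array. Rbpj rose by 0.90 ± 0.10 with NP (limma, adjusted p = 0.000983) and by 1.11 ± 0.10 with BPA (0.000265), and fell by 0.99 in control day8 against control day0 (4.49e-05). Its other 2 probe sets changed in the same direction in these comparisons.

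Kat2b, a histone acetyltransferase that takes part in the Notch nuclear complex, and Dtx1, a Deltex ubiquitin ligase that binds Notch, showed the same order of group means at day 8. Kat2b averaged 8.93 ± 0.11 on NP day8 arrays and 9.07 ± 0.11 on BPA day8 arrays, against 7.64 ± 0.40 on control day8 arrays and 9.73 ± 0.16 on control day0 arrays. It rose by 1.29 ± 0.18 with NP (limma, adjusted p = 0.00274) and by 1.43 ± 0.18 with BPA (0.00098), and fell by 2.08 in control day8 against control day0 (2.53e-05). Dtx1 averaged 6.40 ± 0.29 on NP day8 arrays and 6.91 ± 0.18 on BPA day8 arrays, against 5.31 ± 0.55 on control day8 arrays. It rose by 1.60 ± 0.26 with BPA (limma, adjusted p = 0.00289) and by 1.08 ± 0.26 with NP (0.0245), a call that was lost without NP day8 replicate 2 or 3 or control day8 replicate 1, with adjusted p up to 0.0909, and in a fit of these 2 groups only (0.104).

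Dlk1, which encodes a Delta-like protein without the domain that activates Notch, moved most among the pathway genes. It averaged 7.17 ± 0.74 on NP day8 arrays and 6.79 ± 0.52 on BPA day8 arrays, against 10.59 ± 0.32 on control day8 arrays and 4.70 ± 0.74 on control day0 arrays. It rose by 5.89 ± 0.45 in control day8 against control day0 (limma, adjusted p = 1.37e-05), and fell by 3.41 with NP (0.00196) and by 3.80 with BPA (0.000722). Dlk1 is also abundant in fetal mesenchyme and endocrine tissues.

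Adam10 and Numb rose in control day8 against control day0 and did not pass with either agent. Adam10, the protease that makes the first cut in a bound Notch receptor, averaged 9.38 ± 0.07 on NP day8 arrays and 9.38 ± 0.07 on BPA day8 arrays, against 9.55 ± 0.04 on control day8 arrays and 8.31 ± 0.08 on control day0 arrays. Numb, an inhibitor of Notch that promotes its turnover, averaged 8.28 ± 0.23 on NP day8 arrays and 8.21 ± 0.09 on BPA day8 arrays, against 8.50 ± 0.09 on control day8 arrays and 7.26 ± 0.08 on control day0 arrays. Both rose by 1.25 in control day8 against control day0 (limma, adjusted p = 8.74e-06 for Adam10 and 4.48e-05 for Numb). Nrarp, a target gene whose product limits Notch signalling, rose by 0.62 ± 0.13 in that comparison (0.00328), while its second probe set changed by -0.02, and the mean of both did not pass (0.202). With BPA Nrarp fell by 0.41 (SE 0.13, limma, adjusted p = 0.0488), a call that was lost in 18 of the 22 alternatives, with adjusted p up to 0.161. Heyl, a relative of Hey1 and Hey2, was below background on all control day8 arrays. On the measured signals it passed as lower there than on control day0 arrays (limma, adjusted p = 0.0049), with means of 0.38 and 4.15. Heyl also passed on these signals as higher with BPA (limma, adjusted p = 0.0175) and with NP (0.048). With control day8 raised to background, its mean was 1.68-fold below control day0 and 1.37-fold below BPA day8, and the NP day8 mean was itself under that level. These folds have no estimate of their spread. The probe set used for Heyl was above background on 7 of 12 arrays. A second, above background on 6 arrays, had the opposite sign each time. Its log2 changes were 1.44 between the controls (day 8 minus day 0), -1.19 for BPA and -1.37 for NP (SE 1.56). The third, above background on 2 arrays, gave -1.04, 1.58 and -0.65 in that order (SE 1.30). With every value under background set to that level, Heyl did not pass with NP (0.57), with BPA (0.289) or in control day8 against control day0 (0.129). The call with NP was lost in 17 of the 22 alternatives, and that with BPA also in a fit of these 2 groups only and without control day8 replicate 1 or BPA day8 replicate 3 (adjusted p up to 0.0645).

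**Figure D5:**
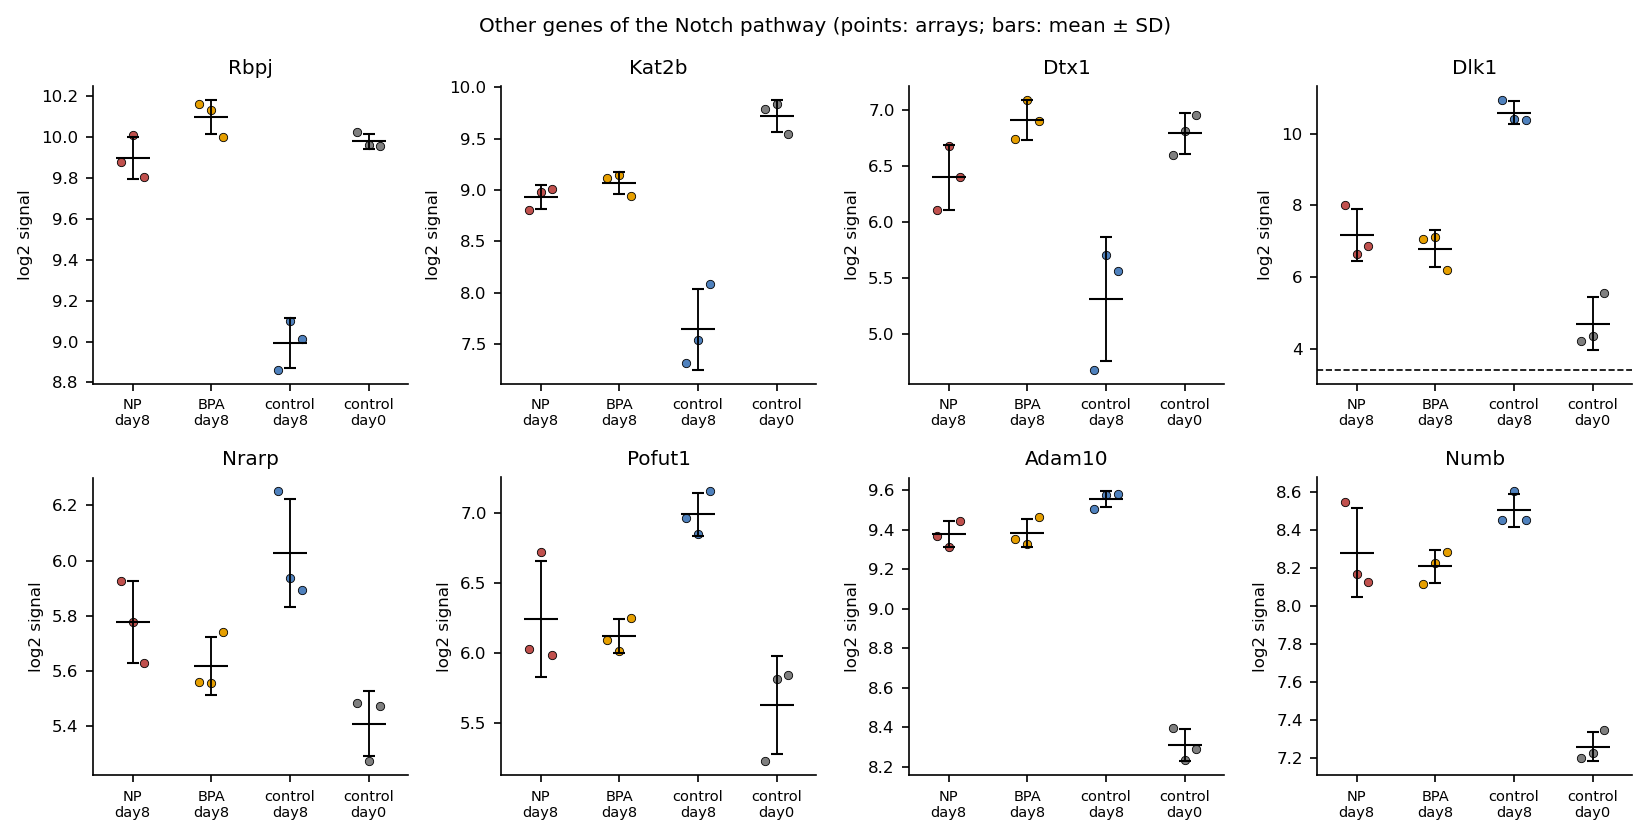
Log2 signal of 8 further genes of the Notch pathway on every array (points), with the mean and SD of each group (bars, n = 3 arrays). Rbpj, Kat2b and Dtx1 were lower on control day8 arrays than on all arrays with an agent, Dlk1 was higher there, and Adam10 and Numb separated control day0 from the other 3 groups.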

How the data were processed

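Log2 signals per probe set were deposited by the authors for 12 arrays, made with MAS5 per the submitters' processing notes, with version and settings not given in the sources used here. On each array the mean linear signal without the top and bottom 2% was 100.0. Probe sets were named from the platform annotation, in which 34958 had 1 gene, 932 several and 9211 none, and those with several were not used. Values were used as deposited. After removal of 64 control probe sets, the brightest 60% by mean over all arrays (27023) were kept. A gene's values are those of its brightest probe set, which left 13067 genes.

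Groups were compared with limma 3.58.1 in R 4.3.3, with 1 mean per group over all 12 arrays, 2-sided moderated tests and Benjamini-Hochberg adjustment over all genes, and an adjusted p under 0.05 as the threshold. The code was tested on simulated data. Alternatives covered the filter, probe set choice, scaling, a pseudocount of 16, the variance prior, arrays fitted, the replicate number as a block and each array left out in turn; a background floor was added after the data were seen. The rule for named genes took all 10 members and, from each pathway list and comparison, up to 2 genes per direction with the lowest p among those that passed, and, for the 3 members with the widest range of group means, the 3 genes with the highest correlation over the arrays. Of the pathway genes that met this rule, Aph1a, Aph1b, Pofut1, Mfng, Fbxw7, Dtx3, Neurl1a, Maml1, Ctbp1 and Hdac1 were not described in the text. Members and lists were chosen with earlier results of these data known.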

Additional observations from a re-analysis of the deposited data

How the results depend on the processing

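The number of arrays and signals near background limit these results. Over the 22 alternatives, calls on the 10 genes were the same in 277 of 330 cases, lost in 53 and reversed in 0, and genes not called stayed so in 923 of 978, were gained in 27 and had the opposite sign in 28. With other scaling the median of all genes in control day8 against control day0 was 0.01 instead of 0.12. The cause of the changes below was not tested.

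The count of Notch genes that passed in control day8 against control day0, 5, was 3 with median centring, 2 in a fit of the 2 groups and 2 to 5 without 1 array, with 2 without control day0 replicate 2 and 3 without control day8 replicate 2. In BPA day8 against control day8, 3 became 1 with the mean of probe sets, and all genes called, 2906, ranged from 1822 to 2949 without 1 array, with 1822 without control day8 replicate 1. In NP day8 against control day8, 2 became 1 with the mean of probe sets and in the 2-group fit, and 1 to 3 without 1 array, with 1 without control day8 replicate 1 or 2 or NP day8 replicate 3. All genes called there, 1852, were 1182 without the filter, 645 in the 2-group fit and 802 to 1874 without 1 array (802 and 1022 without control day8 replicates 1 and 2, 854 and 896 without NP day8 replicates 2 and 3). In NP day8 against BPA day8 the 1 gene became 4 without the filter, 3 with the mean of probe sets, 0 to 3 without 1 array, and 0 with the stricter filter, median centring, the pseudocount, the intensity trend, the 2-group fit and the background floor. In NP day8 against control day0, 2 became 2 to 4 without 1 array, with 4 without control day0 replicate 3.

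Deviations of arrays that share a replicate number correlated between -0.01 and 0.08, and those of arrays with different numbers between -0.11 and 0.06. In BPA day8 against control day0 shared numbers gave 0.008 to 0.029, and different numbers -0.019 to 0.005. With 3 arrays a group, these values cannot decide whether the numbers pair the arrays. With the replicate number as a replicate block, the count of Notch genes in BPA day8 against control day0 was 5 instead of 3, and 0 genes passed in NP day8 against BPA day8. It moved no other count of all genes or Notch genes by more than 1.5 times. Among other pathway genes, the count in NP day8 against control day0, 8, was 13 with the intensity trend.

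Signs turned for Mib1, which promotes ligand uptake, in control day8 against control day0 (1.26, and -0.13 with the mean of probe sets), for Notch1 in BPA day8 against control day0 (0.23 with the mean of probe sets) and for Dll4 in NP day8 against control day8 (-0.0047 with the pseudocount, -0.14 with the background floor). Without 1 array, ranges that crossed 0 were -0.0099 to 0.59 for Notch1 and -0.36 to 0.068 for Hes1 in control day8 against control day0, and -0.73 to 0.13 for Dll4 in BPA day8 against control day8. They were -0.034 to 0.38 for Dll1 and -0.31 to 0.55 for Dll4 in NP day8 against control day8. In NP day8 against BPA day8 they were -0.22 to 0.18 for Notch2, -0.015 to 0.18 for Notch3, -0.11 to 0.12 for Notch4 and -0.24 to 0.12 for Hey1. In BPA day8 against control day0 they were -0.22 to 0.064 for Notch1 and -0.27 to 0.23 for Hey1, and in NP day8 against control day0 -0.30 to 0.20 for Hey1. Of these results, Mib1 had passed the threshold (limma, adjusted p = 0.000328) and none of the others had.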
